A study of Homo sapiens with 24 samples.

Results

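The gene expression of a human kidney cell line labelled RPRD1B_FL was compared with that of its parent line, both grown with tetracycline. Of the 24 samples of the series, 4 entered this comparison: RPRD1B_FL_TET (2 samples) and FLP_TET (2 samples), chosen by their titles. The same lines without tetracycline, RPRD1B_FL (2 samples) and FLP (2 samples), gave the background of the difference. The host of all 8 samples is Flp-In T-REx 293, which descends from the embryonic kidney line HEK293 and carries a recombination site for inserting a gene and a repressor that tetracycline releases. Tetracycline was given for 48 h, and both lines received it, so the comparison holds the drug constant. The labels do not spell out FL, name no tag or promoter, and do not say whether the line is a single clone or whether the samples of a group came from separate cultures. The p-values therefore measure the spread between these samples, which may be technical. RNA was counted at the 3′ ends of polyadenylated transcripts, and levels are given as CPM, counts scaled to a common library size.

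RPRD1B, also called CREPT, and its relatives RPRD1A and RPRD2 bind the carboxy-terminal domain of RNA polymerase II, the tail whose phosphorylation pattern changes as the enzyme moves along a gene. RPRD1A and RPRD1B help recruit the phosphatase RPAP2, which removes a phosphate from that tail. RPRD1B is also known for raising cyclin D1 and Wnt target genes with beta-catenin. The series asks how the RPRD proteins affect the amount of RNA present at steady state.

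Several groups of genes differed between the lines. Some genes abundant in the parent line were at or near 0 in the RPRD1B_FL line, among them CEBPE and GSTP1. BMP2, the BMP target genes ID1 and ID3 and the hormone subunit gene CGA were higher. Genes on the long arm of chromosome 21 and the short arm of chromosome 5 were mostly lower. RPRD1B was higher and RPRD1A lower.

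Promoter sequence is shown for 3 of these genes, which are among the largest differences in each direction and whose start regions differ in CG content and motifs. Sequences are from RefSeq on GRCh38.p14, from 250 bases before to 50 bases after the annotated start, and 98 of the 133 genes called in the main test had such a window. GSTP1 and CEBPE, both near 0 in the RPRD1B_FL line, are printed with every CG dinucleotide in capitals. The GSTP1 window (chr11:67583562-67583861, plus strand) holds 36 CG, more than 87.3% of the 34943 windows of the same length. The CEBPE window (chr14:23119206-23119505, minus strand) holds 2 CG, more than 11% of windows, where the median window holds 14. The CGA window (chr6:87095057-87095356, minus strand) is printed with TGACGTCA, the cAMP response element, in capitals. That motif reads the same on both strands and does not overlap itself here. It occurs 2 times in the CGA window, while 1.84% of all windows hold it and 0.0601% hold it 2 or more times. A match is a description of the letters only.
GSTP1: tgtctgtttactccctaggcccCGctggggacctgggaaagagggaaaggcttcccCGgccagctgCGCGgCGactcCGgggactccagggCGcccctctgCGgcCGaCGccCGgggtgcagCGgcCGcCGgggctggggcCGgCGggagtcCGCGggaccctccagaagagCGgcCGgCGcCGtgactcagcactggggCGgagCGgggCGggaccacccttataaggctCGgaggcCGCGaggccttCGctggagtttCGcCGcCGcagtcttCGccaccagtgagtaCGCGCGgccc
CEBPE: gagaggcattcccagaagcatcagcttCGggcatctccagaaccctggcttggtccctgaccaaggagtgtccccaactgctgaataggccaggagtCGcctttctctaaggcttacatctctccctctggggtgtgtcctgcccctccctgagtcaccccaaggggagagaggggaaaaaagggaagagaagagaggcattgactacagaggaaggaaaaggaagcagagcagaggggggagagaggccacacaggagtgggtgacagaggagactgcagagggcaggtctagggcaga
CGA: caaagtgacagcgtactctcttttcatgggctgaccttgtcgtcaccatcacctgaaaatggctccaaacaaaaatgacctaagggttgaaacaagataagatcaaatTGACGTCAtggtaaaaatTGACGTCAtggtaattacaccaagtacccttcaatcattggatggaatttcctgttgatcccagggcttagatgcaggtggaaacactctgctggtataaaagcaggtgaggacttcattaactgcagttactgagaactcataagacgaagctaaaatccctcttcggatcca

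The libraries of the 4 samples held 2342969 to 3429264 counts in genes and detected 16816 to 17539 genes. A floor of 3 counts per library, below which a gene is treated as not measurable, equals 0.885 to 1.28 CPM at this depth. Samples of a group differed beyond sampling noise, with a chi-square per degree of freedom of 2.01 between the FLP_TET samples and 6.02 between the RPRD1B_FL_TET samples. The log2 level of each gene, minus its mean over the 8 samples, was also correlated with transcript GC content across genes. These Spearman correlations differed between the RPRD1B_FL_TET samples, at 0.54 and -0.11, against 0.27 and 0.39 in FLP_TET. The log2 fold changes between the groups had a correlation with GC content of 0.0059 across 11899 genes, and of 0.26 without tetracycline. The part of GC content in the results was not tested beyond a GC-corrected fit. By the quasi-likelihood test of edgeR, 133 of 11948 genes (1.11%) had a Benjamini-Hochberg adjusted p under 0.05 and are referred to as called. An unadjusted p under 0.05 was reached by 1236 genes (10.3%). The called genes were 27 higher (0.226% of the genes tested) and 106 lower (0.887% of the genes tested) in RPRD1B_FL_TET. The counts rested on both parent samples: 28 genes were called without FLP_TET replicate 1 and 34 without FLP_TET replicate 2. Without RPRD1B_FL_TET replicate 1 the number was 232.

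RPRD1B (chr20:38033546-38127780) was examined first, as the gene the line is named for. It was at 29.5 and 29.2 CPM in the FLP_TET samples and at 83.9 and 64.6 CPM in the RPRD1B_FL_TET samples. Both samples of the RPRD1B_FL line lay above both parent samples. Such a lack of overlap between the groups, in either direction, was found for 4569 of the genes tested (38.2%). The log2 fold change of RPRD1B was 1.34 (SE 0.19, adjusted p 0.00032 in edgeR's quasi-likelihood test). Without tetracycline the same lines were closer, at 34.6 and 34.1 CPM in FLP and 43.2 and 43.8 CPM in RPRD1B_FL, with a log2 fold change of 0.34 that was not called. An introduced copy adds to this value only as far as its reads map to the annotated RPRD1B gene, which was not examined here.

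RPRD1A (chr18:35984387-36067576), the closest relative of RPRD1B, went the other way. Its samples were at 55.5 and 52.1 CPM in FLP_TET and 25.4 and 24.4 CPM in RPRD1B_FL_TET, and the groups did not overlap (log2 fold change -1.11, SE 0.20, adjusted p 0.0046 in edgeR). Without tetracycline RPRD1A was at 61.6 and 47.4 CPM in FLP and at 45.6 and 44.2 CPM in RPRD1B_FL, a log2 fold change of -0.27 that was not called. The gene lies on 18q, where the 130 genes tested had medians on the log2 scale of -0.25 with and -0.27 without tetracycline. RPRD2, the third relative, was at 72.3 and 75.3 CPM against 69.5 and 71.9 CPM, with a log2 fold change of -0.06 (SE 0.16). The call of RPRD1A was lost without FLP_TET replicate 1 and without FLP_TET replicate 2.

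**Figure D1:**
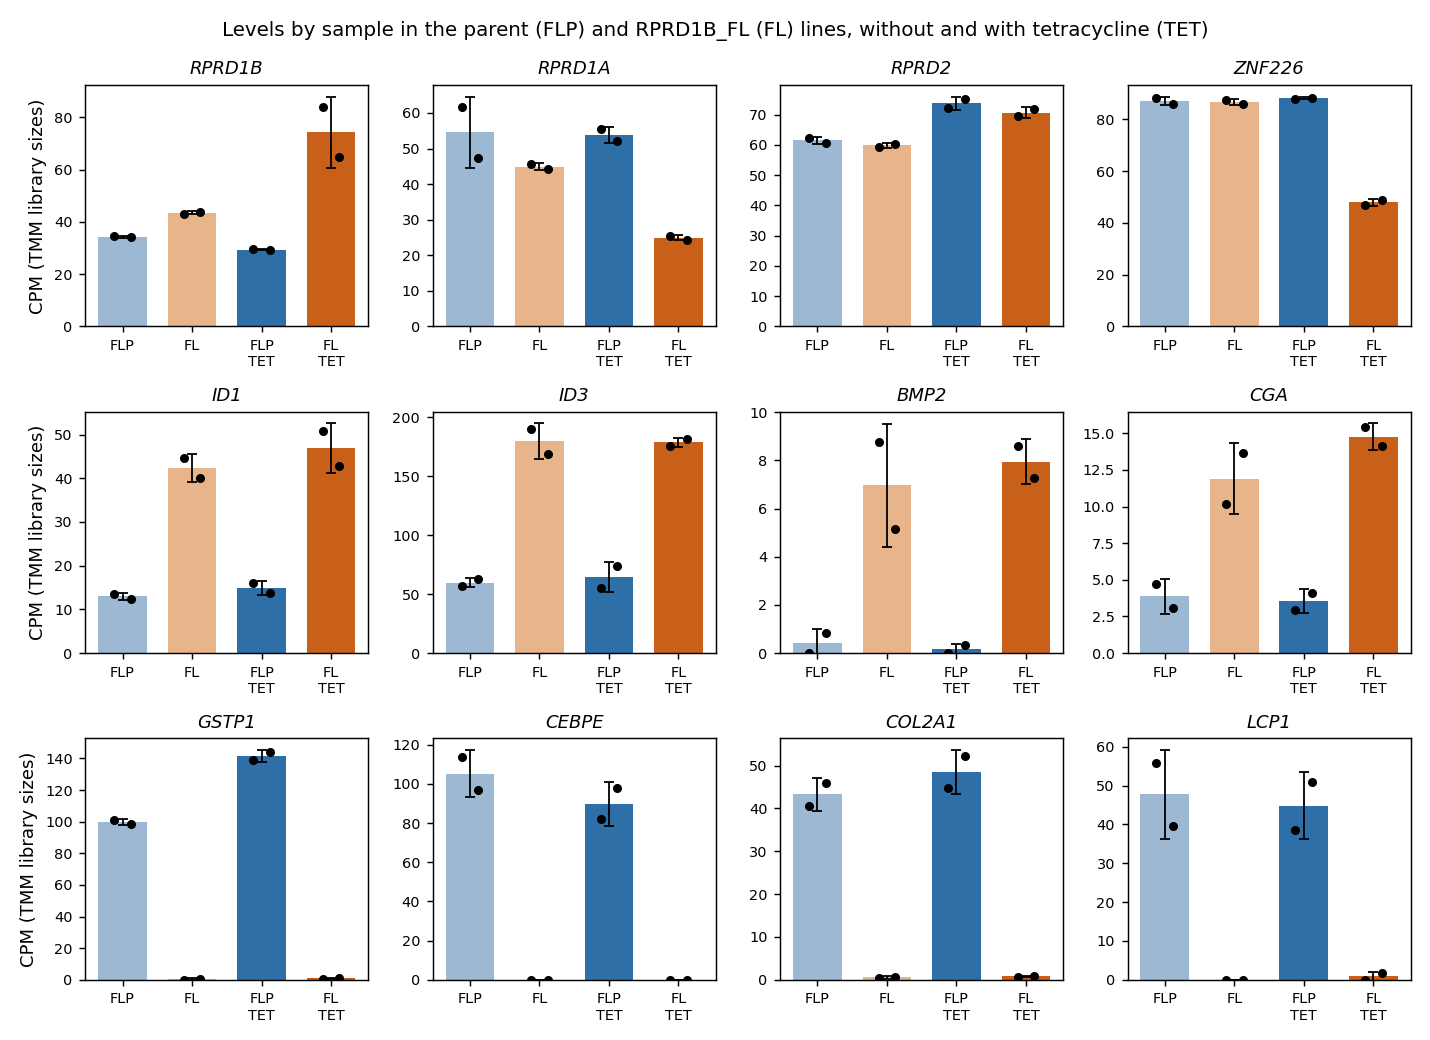
CPM by sample (points) for 12 genes in the 4 Flp-In groups of 2 samples, where bars are group means and error bars the SD. The lines are closer in RPRD1B, RPRD1A and ZNF226 without tetracycline than with it, whereas ID1, ID3, BMP2, CGA, GSTP1, CEBPE, COL2A1 and LCP1 differ with and without it.

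Genes around the polymerase itself were also read beside the 1.11% of all genes tested that were called. Lists this short can hold no call at that share. None of the 12 tested RNA polymerase II subunit genes was called, and their log2 fold changes lay between -0.10 and 0.18. None of 9 phosphatase genes of the carboxy-terminal domain was called, including RPAP2 at 15.3 and 11.1 CPM in FLP_TET and 8.60 and 11.1 CPM in RPRD1B_FL_TET. Among 32 kinase and elongation factor genes, CDK8, the kinase of the Mediator complex, was the member called. CDK8 was at 13.3 and 13 CPM in FLP_TET and 25.8 and 26.5 CPM in RPRD1B_FL_TET, which is 0.99 higher on the log2 scale (SE 0.24, adjusted p 0.043). Its partner cyclin gene CCNC had a log2 fold change of 0.83 and an adjusted p of 0.090 in edgeR. CDK8 was not called when any of the 4 samples was left out, nor by DESeq2, at a mean count of 50 or more or with the replicate block. None of 34 cleavage and polyadenylation genes was called, and their median log2 fold change was 0.02.

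The cell cycle and Wnt genes that RPRD1B is known for were read beside all genes tested, of which 1.11% were called. At that share a list of this length can hold no call, so its lack is not a result about the members. None of 43 tested cyclin and cell cycle genes was called, and their median log2 fold change was -0.02, while that of all genes tested was 0.00. CCNA2, an S phase cyclin, was at 45.7 and 49.9 CPM in FLP_TET and 62.7 and 74.0 CPM in RPRD1B_FL_TET (log2 fold change 0.51, adjusted p 0.27). TFDP1, the dimer partner of the E2F factors and a gene outside that list, was called higher, at 310 and 324 CPM against 648 and 507 CPM (log2 fold change 0.87, SE 0.15, adjusted p 0.0035 in edgeR), a call lost without either FLP_TET sample. Of 25 Wnt feedback and target genes, none was called higher and 2 were called lower, while 0.887% of all genes tested were called lower. Both called members encode inhibitors of the pathway. SFRP1, a secreted Wnt binder, was at 26 and 28.6 CPM in FLP_TET and 12.2 and 12 CPM in RPRD1B_FL_TET. NKD2, a Dishevelled binder on 5p, was at 20.4 and 20.3 CPM against 10.8 and 5.13 CPM. Neither was called without tetracycline, and both calls were lost with DESeq2 and without either FLP_TET sample, and that of NKD2 also without RPRD1B_FL_TET replicate 2.

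In the BMP pathway, BMP ligands act through SMAD proteins to switch on the ID genes. Of 26 tested genes of this list 3 were called higher, while 0.226% of all genes tested were called higher. The list was chosen with earlier results of these data known. ID1, an inhibitor of differentiation factors, was at 15.9 and 13.7 CPM in FLP_TET and 50.9 and 42.8 CPM in RPRD1B_FL_TET. ID3, its relative, was at 55.5 and 73.4 CPM in FLP_TET and 176 and 181 CPM in RPRD1B_FL_TET. The groups overlapped for neither gene, and the log2 fold changes were 1.66 (SE 0.22) for ID1 and 1.47 (SE 0.17) for ID3.

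The ligand gene BMP2 was close to absent in the parent line, with 0 and 1 counts in the FLP_TET samples. It had 24 and 17 counts in the RPRD1B_FL_TET samples, or 8.60 and 7.27 CPM. The ratio of the summed counts, scaled by library size, was 52.3 with an exact 95% interval of 8.87 to 2114, which covers counting error only. The BMP2 call was lost without FLP_TET replicate 1. The other 23 of the 26 tested members of this list were not called. The median log2 fold change of the list was 0.11 with and -0.01 without tetracycline. Without tetracycline the differences of ID1 and ID3 had nearly the same size, with log2 fold changes of 1.71 for ID1 and 1.58 for ID3. There BMP2 had 0 and 3 counts in FLP and 25 and 14 in RPRD1B_FL.

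Other called genes with higher levels had no common list. CGA, the alpha subunit shared by the pituitary and placental glycoprotein hormones, was at 2.95 and 4.13 CPM in FLP_TET and 15.4 and 14.1 CPM in RPRD1B_FL_TET. The log2 fold change of CGA was 2.06 (SE 0.35, adjusted p 0.0025 in edgeR) with tetracycline and 1.63 without it. Its call was lost without FLP_TET replicate 1. TSPO, a cholesterol-binding protein of the outer mitochondrial membrane, was at 38.1 and 39.4 CPM against 108 and 77.4 CPM, log2 differences of 1.26 with and 1.46 without tetracycline. RYR2, a calcium release channel, had log2 fold changes of 1.13 and 1.06 in the same order. The calls of TSPO and RYR2 were lost without either FLP_TET sample. That of RYR2 was also lost with DESeq2, at a mean count of 50 or more and without RPRD1B_FL_TET replicate 2.

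A further group of higher genes had smaller fitted differences without tetracycline. They were selected by the value with tetracycline, and the test of the difference between the conditions called none of them. Log2 fold changes with and without it were 1.49 and 1.18 for RNU2-63P and 1.24 and 0.89 for OR7E38P. PAQR6, a membrane progestin receptor, was at 11.8 and 9.53 CPM in FLP_TET and 23.3 and 28.7 CPM in RPRD1B_FL_TET, with log2 fold changes of 1.27 with and 0.24 without tetracycline. Its call was lost with DESeq2 and without either FLP_TET sample. Several of the other higher genes share sequence or position with another tested gene. JMJD8 overlaps STUB1 on the opposite strand, C6orf120 overlaps PHF10 on the opposite strand, and KCNJ14 overlaps GRWD1 on the same strand. AP000692.2, a non-coding gene on 21q, overlaps MORC3 on the opposite strand, and no source states the strand setting of the counting, so its reads and those of MORC3 cannot be told apart. RNU2-63P and OR7E38P belong to families with near-identical copies, so their counts are uncertain. The calls of these genes were lost without either FLP_TET sample, except that of RNU2-63P, lost without FLP_TET replicate 1. KCNJ14, OR7E38P and AP000692.2 were also not called by DESeq2, nor JMJD8 at a mean count of 50 or more. JMJD8 and AP000692.2 were not called without RPRD1B_FL_TET replicate 1, nor PAQR6 and KCNJ14 without replicate 2 of that group.

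The largest differences were genes at the floor of detection in 1 line. Among the called genes 9 averaged 3 counts or fewer per library in RPRD1B_FL_TET, and 3 did so in FLP_TET; this grouping was chosen after the values were seen. CEBPE (chr14:23117304-23119616), a transcription factor of granulocyte maturation, was at 82.0 and 97.9 CPM in the FLP_TET samples and at 0 counts in both RPRD1B_FL_TET samples. It was at least 76.3-fold lower, taking the floor of 3 counts per library. GSTP1 (chr11:67583595-67586656), a glutathione transferase that detoxifies electrophiles, had 471 and 454 counts in FLP_TET and 2 and 3 counts in RPRD1B_FL_TET. The ratio was 145, with an exact 95% interval of 62.0 to 448. Both genes were also at or near 0 without tetracycline in the RPRD1B_FL line, with 0 counts of CEBPE in both samples and 0 and 2 counts of GSTP1.

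COL2A1 (chr12:47972965-48004554), the main collagen of cartilage, had 152 and 164 counts in FLP_TET and 2 in each RPRD1B_FL_TET sample. Its ratio was 62.0, with an interval of 24 to 229. LCP1 (chr13:46125920-46211871), an actin-bundling protein of blood cells, had 131 and 160 counts against 0 and 4, a ratio of 57.1 with an interval of 22.1 to 211. In bulk RNA fewer cells of a type and less RNA per cell cannot be told apart. SPARC (chr5:151661096-151687165), a secreted matrix protein, had 36 and 25 counts in FLP_TET and 0 in both RPRD1B_FL_TET samples, at least 7.87-fold lower. These 5 genes lie on 5 chromosomes, and each was called under every alternative that tested it.

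The other 4 genes near 0 in RPRD1B_FL_TET were LINC02226, SALL3, PLIN2 and PLXNA4. The non-coding LINC02226 on 5p was at least 5.37-fold lower, and SALL3, a zinc finger factor on 18q, at least 3.91-fold lower. PLIN2, a lipid droplet coat protein, had 11 and 13 counts in FLP_TET against 1 and 0. PLXNA4, a semaphorin receptor, had 25 and 19 counts against 4 and 2. Without tetracycline PLXNA4 had 15 and 22 counts in FLP and 8 and 10 in RPRD1B_FL, a difference that was not called. LINC02226, SALL3 and PLIN2 had 0 or 1 counts in each RPRD1B_FL sample there. In the opposite direction, SLC16A7, a monocarboxylate transporter, had 0 counts in both FLP_TET samples and 16 and 15 in RPRD1B_FL_TET, at least 6.61-fold higher. LSAMP, a neuronal adhesion protein, had 2 counts in each FLP_TET sample and 12 in each RPRD1B_FL_TET sample. Without tetracycline SLC16A7 had 4 and 3 counts in the parent line.

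The HEK293T samples of the series with control siRNA, another derivative of the same kidney line, give a reference for these genes, scaled separately and not tested against the Flp-In samples. There CEBPE was at 0 counts in both samples, as in the RPRD1B_FL line. LCP1 was at 0.554 and 0.899 CPM. GSTP1 was at 2458 and 1742 CPM in HEK293T, above both Flp-In lines, and COL2A1 at 15 and 26.5 CPM.

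Many of the genes called lower shared 2 chromosome arms: 34 of the 106 lay on 21q and 17 on 5p. On 21q, 34 of 110 tested genes were called lower (30.9%) and 107 had a log2 fold change below 0. The median of the arm was -0.70 with and -0.74 without tetracycline, a median ratio of 0.615 with tetracycline. On 5p, 17 of 94 tested genes were called lower (18.1%) and 88 were below 0, with medians of -0.52 and -0.55 and a ratio of 0.697. Of the 11744 tested genes outside these arms, 55 were called lower (0.468%) and 26 higher. The 21q count fell to 4 and 5 and the 5p count to 7 and 6 without FLP_TET replicates 1 and 2.

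**Figure D2:**
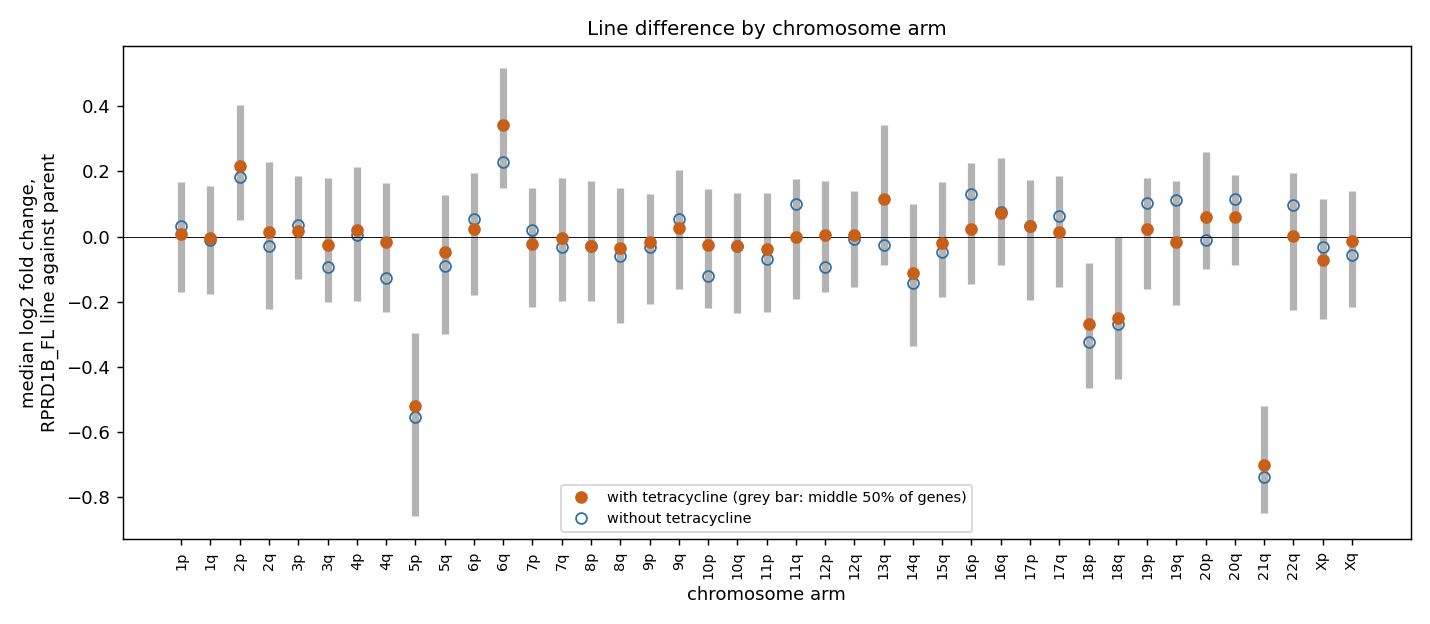
Median log2 fold change of the RPRD1B_FL line against its parent (vertical axis) for the tested genes of 41 chromosome arms (horizontal axis), with tetracycline (filled points; grey bars span the middle 50% of genes) and without (open points). The medians of 21q (-0.70) and 5p (-0.52) with tetracycline lie below those of all other arms, which run from -0.27 on 18p to 0.34 on 6q.

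Genes of 21q from several pathways were lower together. SOD1, the cytosolic superoxide dismutase, was at 1045 and 1032 CPM in FLP_TET and 706 and 606 CPM in RPRD1B_FL_TET. ATP5O, a subunit of ATP synthase, was at 1181 and 1312 CPM against 705 and 836 CPM. PFKL, the liver form of phosphofructokinase, was at 216 and 230 CPM against 102 and 80.4 CPM. The groups did not overlap for SOD1, ATP5O or PFKL. COL6A1, a collagen VI chain, had the largest fold of the called lower genes of 21q, at 77.9 and 71.8 CPM against 26.9 and 19.7 CPM (log2 fold change -1.67, SE 0.21). The cytokine receptor genes IFNGR2 and IL10RB had log2 fold changes of -0.77 and -0.99, MRPS6, a mitoribosomal protein whose gene shares its strand with SLC5A3, -0.83, and LSS, the sterol cyclase, -0.95. IFNGR2 overlaps TMEM50B on the opposite strand. Of the 21q genes named here, COL6A1 and PFKL stayed called without either FLP_TET sample, and the other 6 did not. LSS was also not called by DESeq2, at a mean count of 50 or more or without RPRD1B_FL_TET replicate 1. Without RPRD1B_FL_TET replicate 2, SOD1, IFNGR2 and MRPS6 were not called.

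On 5p the called members of the gene lists were HMGCS1, MRPL36, NDUFS6 and NKD2. NDUFS6, a subunit of respiratory complex I, was at 1022 and 1066 CPM in FLP_TET and 558 and 453 CPM in RPRD1B_FL_TET, a log2 fold change of -1.05 with and -1.21 without tetracycline. HMGCS1, the synthase that begins cholesterol synthesis, was at 286 and 309 CPM against 128 and 202 CPM. MRPL36, a mitoribosomal protein, was at 84.7 and 96.3 CPM against 39.8 and 44.9 CPM. NDUFS6 was called under every alternative. HMGCS1 was not called without either FLP_TET sample or without RPRD1B_FL_TET replicate 1, nor MRPL36 without FLP_TET replicate 2.

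Smaller shifts ran over other arms in both conditions. Genes of 6q had a median of 0.34 with and 0.23 without tetracycline, and those of 2p 0.22 and 0.18. The medians of 18p were -0.27 and -0.32. Of 282 genes on 6q, 246 lay above 0, and 2 of them were called. On 13q the median was 0.11 with and -0.02 without tetracycline, and 3 genes were called higher there, among them TFDP1 and CDK8, and 2 lower, among them LCP1. DNA copy number was not measured, and its part in these values was not tested.

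The pathway lists were read with these arms in view and beside the 1.11% of all genes tested that were called. Of 33 lists, 15 had no member called, and 31 list members were called in all, 6 higher and 25 lower. Of the 25 lower members, 8 lay on 21q, 4 on 5p and 13 elsewhere. All called members of the mitoribosomal list (2 of 73), the nuclear respiratory chain list (2 of 76) and the cholesterol and fatty acid synthesis list (2 of 27) lay on these 2 arms. The medians of the 3 lists were 0.08, 0.04 and -0.13.

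**Figure D3:**
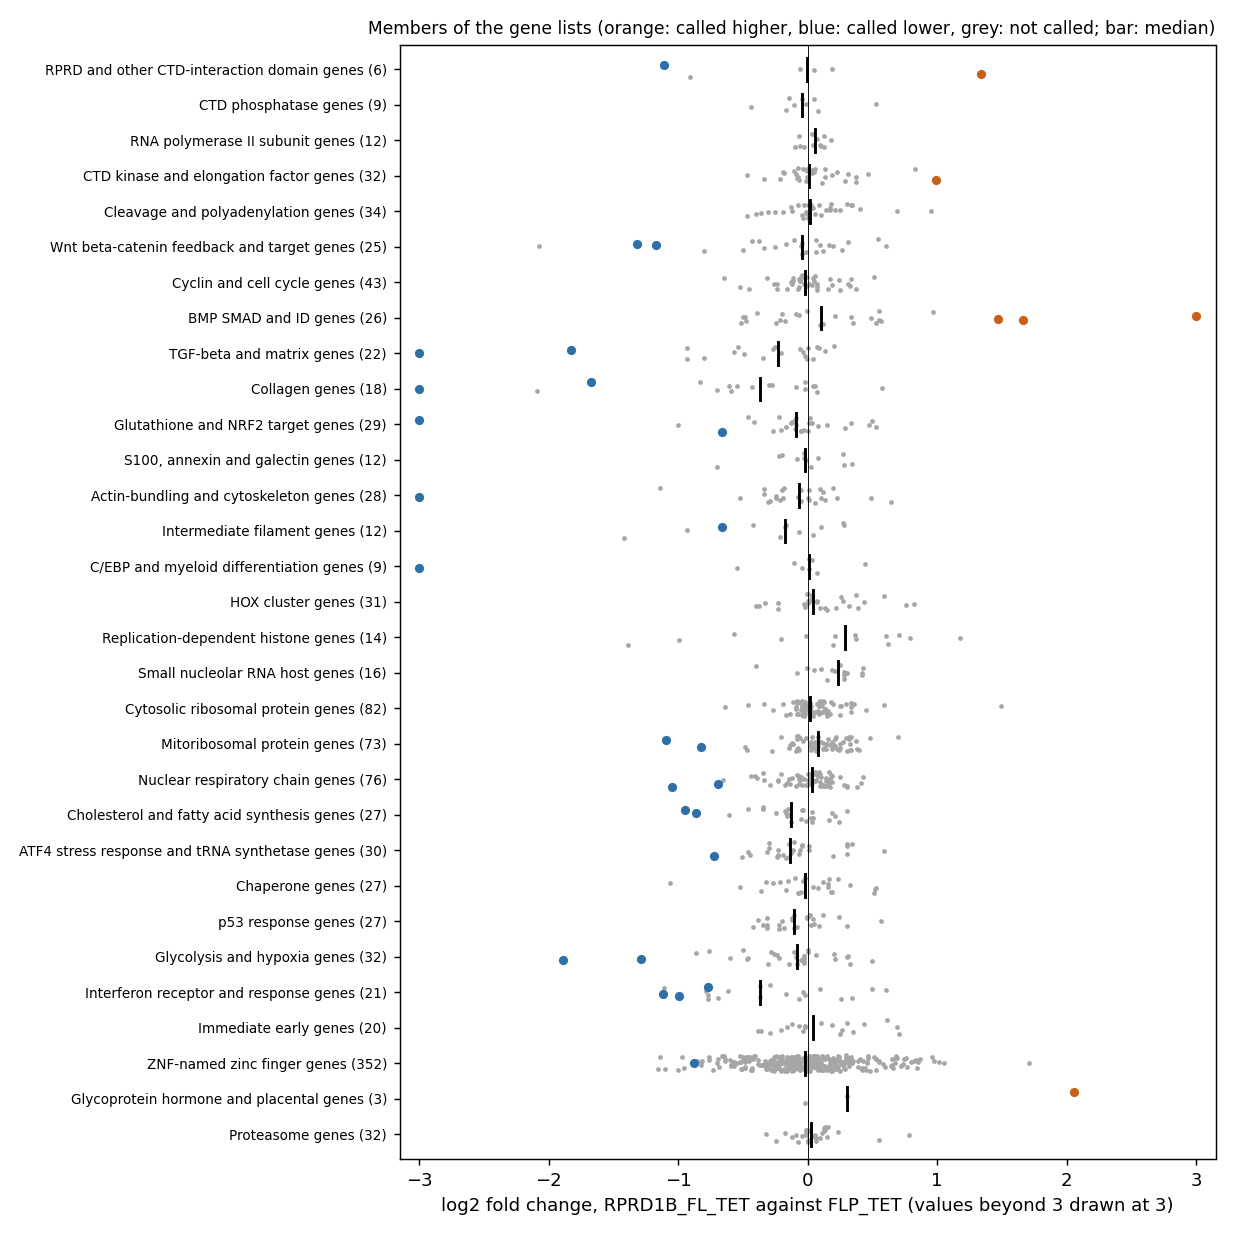
Log2 fold change of RPRD1B_FL_TET against FLP_TET (horizontal axis) for each tested member of 31 gene lists with 3 or more tested members (rows, number tested in brackets); large orange and blue points were called higher and lower, and black bars are medians. The medians lie between -0.37 and 0.30, while the called members of most lists lie farther from 0.

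Matrix and collagen lists were read beside the 0.887% of all genes tested that were called lower. Most called genes of any kind were lower, 106 of 133. Of 18 tested collagen genes 2 were called, COL2A1 and COL6A1, both lower, and the list's median was -0.37. COL6A1 lies on 21q, where 30.9% of tested genes were called lower. Of 22 TGF-beta and matrix genes 2 were called, SPARC and FBN1, and the median was -0.23. FBN1, the fibrillin of elastic fibres, was at 8.26 and 8.58 CPM in FLP_TET and 2.51 and 2.14 CPM in RPRD1B_FL_TET. Its log2 fold change was -1.83 with and -0.42 without tetracycline, and its call was lost with DESeq2, with the replicate block and when any of the 4 samples was left out. Of the 106 lower genes, the 55 outside 21q and 5p had a median log2 fold change of -1.23 with and -0.79 without tetracycline. These genes were selected by the value with tetracycline.

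Receptor and response genes of interferons gave 3 lower calls of 21 tested, with a median of -0.36. This count and those of the next lists stand beside the 0.887% of all genes tested that were called lower. IFNGR2 and IL10RB are on 21q, and BST2, the antiviral tether of budding virus, is on 19p. BST2 was at 38.6 and 34.0 CPM in FLP_TET and 17.6 and 15.8 CPM in RPRD1B_FL_TET (log2 fold change -1.12, adjusted p 0.012 in edgeR). Of 32 glycolysis and hypoxia genes, PFKL and SLC2A3, a neuronal glucose transporter, were called lower. SLC2A3 was at 20.6 and 19.7 CPM against 8.24 and 2.14 CPM. DDIT4, a stress-induced inhibitor of mTORC1, was the 1 of 30 ATF4 stress and tRNA synthetase genes called, at 286 and 283 CPM against 191 and 153 CPM. The calls of BST2, SLC2A3 and DDIT4 were lost without either FLP_TET sample. That of DDIT4 was also lost with RLE size factors, DESeq2, a mean count of 50 or more and the replicate block, and without RPRD1B_FL_TET replicate 2.

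Several small lists held 1 or 2 of the genes described above, where 1.11% of all genes tested were called. The lists were chosen with earlier results of these data known, so these calls give no separate support for a pathway. Of 29 glutathione and NRF2 target genes GSTP1 and SOD1 were called, both lower, with a median of -0.09. The actin-bundling and cytoskeleton list had 1 of 28 called (LCP1), the intermediate filament list 1 of 12 (NEFL) and the C/EBP and myeloid list 1 of 9 (CEBPE), each lower, with medians of -0.06, -0.17 and 0.01. CGA was the 1 of 3 tested glycoprotein hormone and placental genes called. None of 12 S100, annexin and galectin genes was called, nor the 1 cancer-testis gene tested, PRAME. The RPRD and other CTD-interaction domain list had 1 of 6 higher (RPRD1B) and 1 lower (RPRD1A).

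Further lists were read beside the 1.11% of all genes tested that were called. At that share lists of these lengths can hold no call, so its lack is not a result about the members. None of 82 cytosolic ribosomal protein genes, 32 proteasome genes, 27 chaperone genes, 27 p53 response genes, 31 HOX genes, 20 immediate early genes, 14 replication-dependent histone genes and 16 small nucleolar RNA host genes was called. The medians of these lists lay between -0.10 for p53 response genes and 0.29 for histone genes. In these libraries of polyadenylated RNA the histone median rests on the 14 of 69 listed genes that passed the count filter. With 2 samples a group, a missed threshold does not show that their levels were equal. Of 352 tested zinc finger genes with ZNF names 1 was called, ZNF226. The 13 messenger RNAs of the mitochondrial genome are listed at 0 in all 8 libraries, so nothing can be said of them.

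ZNF226 (on 19q) gave a difference seen with tetracycline. It was at 87.9 and 88.3 CPM in FLP_TET and 46.9 and 48.8 CPM in RPRD1B_FL_TET, with no overlap (log2 fold change -0.88, SE 0.17, adjusted p 0.0062 in edgeR). Without tetracycline it was at 88.2 and 86.0 CPM in FLP and 87.4 and 85.8 CPM in RPRD1B_FL, a log2 fold change of -0.01. The difference between the conditions had an unadjusted p of 0.00089 and an adjusted p of 0.99. The ZNF226 call was lost without FLP_TET replicate 1 and without FLP_TET replicate 2.

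Further genes were named as called lower with the largest fold changes. AMOT, a scaffold of tight junctions that restrains the Hippo pathway factor YAP, was at 196 and 222 CPM in FLP_TET and 50.9 and 62.0 CPM in RPRD1B_FL_TET. Its log2 fold change was -1.89 with and -1.94 without tetracycline. P2RX5, an ATP-gated channel, was at 50.1 and 59.4 CPM against 8.60 and 10.7 CPM, with log2 fold changes of -2.51 and -1.55 in the same order. KCNMA1, a calcium-activated potassium channel, had -1.72 and -1.58. The non-coding LINC01033 was at 15 and 11.4 CPM against 1.43 and 3.0 CPM.

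Most others of this group had larger fitted differences with tetracycline, though the test of that contrast called no gene. KISS1R, the kisspeptin receptor, had log2 fold changes of -1.91 with and -1.15 without tetracycline, and MDK, a heparin-binding growth factor, -1.66 and -0.72. SLC16A9, a carnitine transporter, had -1.81 and -0.60, and CDH23, a cadherin of hair cells, -1.90 and -0.56. RINL, a Ras interaction domain gene, had -1.60 and -1.80. Without FLP_TET replicate 1 none of these 5 genes was called. Without FLP_TET replicate 2, KISS1R, CDH23 and RINL were not called. CDH23, SLC16A9 and RINL were not called without RPRD1B_FL_TET replicate 1, nor RINL without replicate 2 of that group, and DESeq2 called neither CDH23 nor RINL. AMOT, P2RX5, KCNMA1 and LINC01033 were called under every alternative that tested them.

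Marker genes of other cell types were read beside these results. The summed level of 16 blood markers was 41.9 and 58.2 CPM in the FLP_TET samples and 5.73 and 7.70 CPM in the RPRD1B_FL_TET samples. LCP1, the called member, made up most of the parent sums, at 38.6 and 50.8 CPM. The other 15 markers summed to 3.24 and 7.31 CPM in FLP_TET and to 5.73 and 5.99 CPM in RPRD1B_FL_TET, so the groups overlapped without LCP1. Of the 16 markers 7, including SPI1, GATA1 and CD3E, were at 0 in all 8 samples. The 14 neuronal markers summed to 187 CPM in both FLP_TET samples and to 114 and 127 CPM in RPRD1B_FL_TET. TUBB3 and STMN2 were at 0 in all 8 samples, and NEFL, a neurofilament protein, was the called member, at 133 and 132 CPM in FLP_TET and 79.9 and 87.7 CPM in RPRD1B_FL_TET. The NEFL call was lost with the replicate block, without either FLP_TET sample and without RPRD1B_FL_TET replicate 1. The sums of 14 epithelial markers were 774 and 816 CPM against 745 and 1018 CPM, and those of 14 mesenchymal markers 725 CPM in both FLP_TET samples against 630 and 712 CPM. The 12 adrenal and embryonic kidney markers summed to 53.7 to 58.5 CPM in FLP_TET and 57.8 to 59.1 CPM in RPRD1B_FL_TET, with NR5A1 and CYP11A1 at 0. EPCAM, an epithelial marker, was detected in all 8 samples. The part of these cell types in the results was not tested.

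By annotated class, 122 of the 133 called genes were protein coding, 20 higher and 102 lower, of 10949 tested. Long non-coding RNAs had 3 higher and 3 lower of 663 tested, and pseudogenes 2 higher and 1 lower of 270. The shares called were 1.11% of protein-coding genes, 0.905% of long non-coding RNAs and 1.11% of pseudogenes. Over all genes tested 1.11% were called, so these counts are not a result about the class. Among 25 small structured RNAs 2 were called higher, RNU2-63P and RNU1-85P, both from families of near-identical copies.

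The line difference without tetracycline was of similar extent. There 141 of 11948 genes were called (1.18%), 27 higher and 114 lower (0.954%). Both comparisons called 69 genes, 51.9% of those called with and 48.9% of those called without tetracycline, 9 of them higher and 60 lower. All 133 genes called with tetracycline had the same sign without it, as did 7382 of the 11948 genes tested. Medians on the log2 scale were, for the 27 higher genes, 1.34 with and 0.89 without tetracycline, and for the 106 lower genes -1.06 and -0.84. Because the genes were selected by the first value of each pair, these medians are a description.

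**Figure D4:**
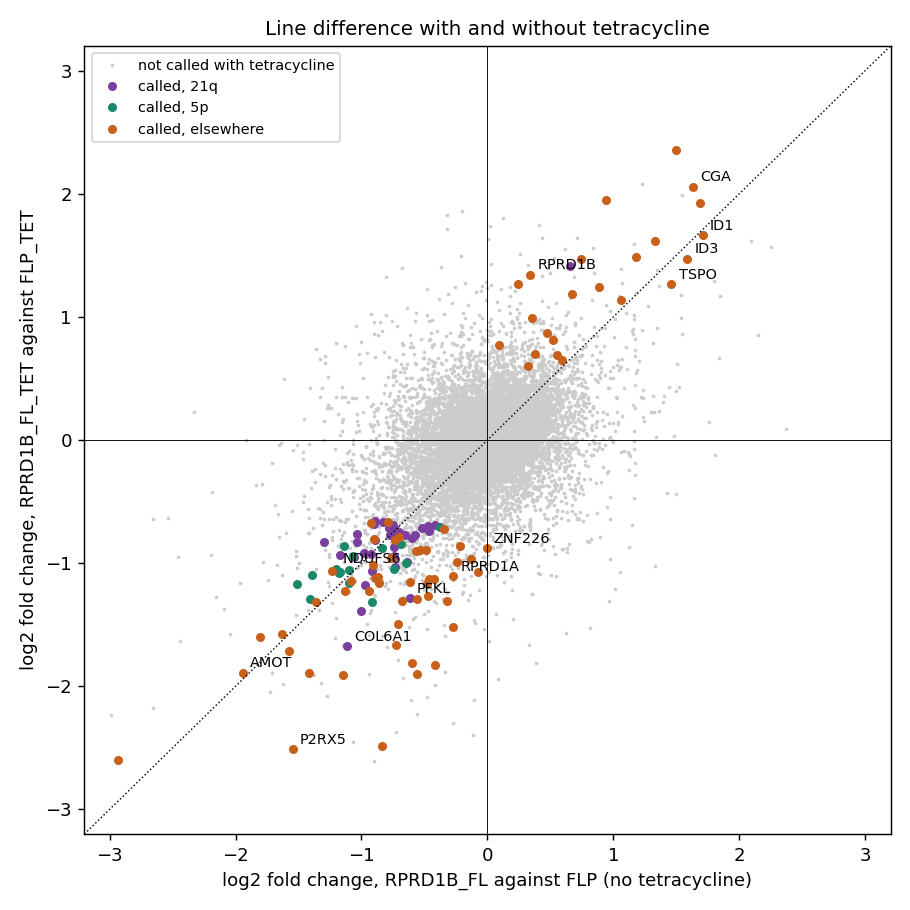
Log2 fold change between the lines with tetracycline (vertical axis) against that without (horizontal axis) for the tested genes; called genes are coloured by chromosome arm, the dotted line marks equal values, and 13 genes lie outside the axes of ±3.2, 11 of them called. The called lower genes have medians of -0.80 with and -0.76 without tetracycline on 21q, and of -1.05 and -1.10 on 5p. RPRD1B, RPRD1A, ZNF226 and P2RX5 lie away from the dotted line, as do PFKL and COL6A1 of 21q.

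Whether the line difference depended on tetracycline was tested as an interaction. No gene was called by edgeR, and 477 of 11948 (3.99%) had an unadjusted p under 0.05; DESeq2 also called none, with 175. Among the 5 genes with the smallest p, RPRD1B had an interaction of 1.00 (SE 0.27, unadjusted p 0.0012), and ZNF226 one of -0.87 (SE 0.23). FITM2, a protein of lipid droplet formation, had 1.72, LPL, the lipoprotein lipase, 1.95, and DHODH, an enzyme of pyrimidine synthesis, 1.25. The adjusted p was 0.99 for all 5. RPRD1A had an interaction of -0.84 with an unadjusted p of 0.0058.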

How the data were processed

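Polyadenylated RNA of 8 Flp-In T-REx 293 samples was analysed, with 2 control siRNA HEK293T samples as a reference. Each deposited table gives raw read counts for every gene name. Per the submitters' processing notes FastQC, STAR, HTSeq, DESeq2 and GRCh38 were used; their versions are not given in the sources used here. Per the labels' protocols the libraries were made with a QuantSeq 3′ kit in its REV version. Closing rows for unassigned reads (30.4% to 33.2% of all counts) were left out. Counts were fitted in R 4.3.3 with edgeR 4.0.16 and limma 3.58.1: filterByExpr (minimum count 10, minimum total 15), TMM scaling, 1 coefficient per group over all 8 samples, and the quasi-likelihood test with Benjamini-Hochberg adjustment over 11948 genes. Gene names were matched to GENCODE 29 on GRCh38 (54848 of 58138 names matched 1 gene, and 460 more through RefSeq synonyms). The script was tested on simulated data.

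The members and gene lists were chosen with earlier results of these data known. Genes named are the RPRD genes, up to 15 higher and 15 lower called genes with the largest fold change, no overlap between groups and a mean CPM of 10 or more in the higher group, called list members, up to 2 members of lists with fewer than 2 called (mean CPM of 10 or more), and the 5 smallest interaction p. Any other gene was chosen after its values were seen. Alternatives were DESeq2 1.42.0, RLE scaling, other filters, a fit of 4 samples, a replicate block, a GC correction and leaving out each sample.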

Additional observations from a re-analysis of the deposited data

How the results depend on the processing

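None of the 50 named genes called changed direction under an alternative that tested it. Of the 50 not called, 4 (CEBPA, KRT19, POLR2I and TPM1) had log2 fold changes of both signs. With tetracycline the 133 calls became 77 when a log2 fold change of at least 1 in size was also required, 88 with DESeq2, 229 without a filter on low counts, 79 at a mean count of 50 or more, 265 with the GC correction and 268 with the GC correction and replicate block. Leaving out a sample gave 28 to 232. The GC-corrected calls were 92 higher and 173 lower, so 34.7% were higher against 20.3% in the main fit, and they kept all 133 genes. Without tetracycline the 141 calls became 80, 292, 314 and 321 with the fold, no filter, the GC correction and the GC correction with replicate block, and 40 to 392 when a sample was left out. The interaction gave 0 to 5 calls with a sample left out; the 5 came without FLP replicate 2. The 21q lower count was 6 with the fold limit, 53 with the GC correction and 53 with the replicate block added, and 4 to 39 with a sample left out. The 5p count was 11 with the fold limit and 6 to 18 with a sample left out. The cause of these differences was not tested, except that leaving out a sample leaves its group with 1, assumed to vary like the others.

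Replicate numbers did not pair the samples of the main comparison. Deviations of same-numbered FLP_TET and RPRD1B_FL_TET samples had a correlation of 0.030 across 8719 genes. The 6 pairs of groups ranged from -0.36 for RPRD1B_FL_TET with FLP to 0.46 for RPRD1B_FL_TET with RPRD1B_FL. Same-numbered samples of the RPRD1B_FL line thus shared part of their deviation, and the cause was not tested. The replicate block called 121 genes with tetracycline, 117 of them shared, and 126 without. Of the 50 named genes called, 15 were called under every alternative that tested them, and 35 were lost without FLP_TET replicate 1 or 2, 13 with DESeq2 and 4 with the replicate block. Of the 50 named genes not called, 12 were called under 1 or more alternatives. Depth limits genes near 3 counts per library.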
